A study of Spodoptera frugiperda with 3 samples.

Results

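Unigenes for pre-mRNA splicing and RNA processing were examined in larvae of the fall armyworm, *Spodoptera frugiperda*, a noctuid moth whose caterpillars feed on crops. They were taken from the union of the 3 deposited tables as every unigene whose best protein hit in NR, the non-redundant protein database, was described with words such as splicing, pre-mRNA, small nuclear ribonucleoprotein, polyadenylation, exosome complex or Integrator complex, leaving out mitochondrial proteins. This gave 72 of 30327 unigenes, or 72 of the 8310 that had an NR hit, and the choice used no expression value beyond the calls that put a unigene in the tables. The best hit of 54 of the 72 was a protein of *Spodoptera litura*, a moth of the same genus, and 10 were nearest to *Helicoverpa armigera*. GO terms bore out the descriptions in part, since 67 of the 72 had a GO entry and 28 carried the term for mRNA splicing via the spliceosome.

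All 3 groups were wild-type larvae labelled as being in the fourth instar, sampled as whole bodies, with RNA of 5 larvae pooled into 1 library. The group T4 was kept at 4 °C for 16 h, the group T40 at 40 °C for 16 h, and the control group T25 at 25 °C for a time that was not given. Because each temperature had 1 library, no difference could be set against the spread between larvae or cultures, and no test across replicates was possible. Each table lists only the unigenes that the authors called between a pair of libraries, at a P-value under 0.05 and a fold change of at least 2. A member is called listed when it stands in the table of a comparison, and its reads in the remaining library are known only if another table lists it too. A unigene is a fragment of a de novo assembly, so several can come from 1 gene and close paralogs may share reads.

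Splicing removes introns from pre-mRNA on the spliceosome, a machine built anew on each intron from small nuclear ribonucleoproteins (snRNPs) and many further proteins. The U1 snRNP recognises the start of the intron, the U2 snRNP binds the branch site, and the tri-snRNP of U4, U6 and U5 then brings in the parts that form the catalytic centre. The same transcripts are cut and polyadenylated at their 3′ ends, Integrator cuts the 3′ ends of small nuclear RNAs and of unfinished transcripts, and the RNA exosome trims or destroys RNA from the 3′ end. In many animals heat shock is known to disturb splicing and to leave introns in transcripts.

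Most of these unigenes were higher in T40 than in either other library. In T40/T25, 45 of the 72 members were listed, of which 41 were higher and 4 lower in T40. The listed share of 62.5% was below the background, since 66.2% of all unigenes and 73.7% of those with an NR hit were listed in that table. The direction differed from the background: 56.9% of the members were listed as higher against 39.5% of unigenes with an NR hit, and 5.56% were listed as lower against 34.2%. Of the listed unigenes, 91.1% of the members and 53.6% of those with an NR hit were higher. The median log2 ratio of the listed members was 1.98, while that of all listed unigenes with an NR hit was 1.40. Listing needed a 2-fold change either way, so the latter median depends mainly on the share that was higher. Quartiles were 1.54 and 2.55 for listed members, and -2.40 and 2.49 for listed unigenes with an NR hit. The medians therefore do not show that the members' rises were larger. Folds of the 41 higher members ran from 2.38 to 39.4 with a median of 4.12.

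In T40/T4, 60 members were listed, 54 of them higher and 6 lower in T40. The listed share was 83.3% among the members, 66% among unigenes with an NR hit and 62.3% among all unigenes. Listed as higher in T40 were 75% of the members against 37.4% of unigenes with an NR hit. Listed as lower were 8.33% of the members against 28.7%. The median log2 ratio of the listed members was 1.75, beside 1.45 for listed unigenes with an NR hit. Quartiles were 1.49 and 2.48 for listed members, and -2.40 and 2.29 for listed unigenes with an NR hit. Here too the medians do not compare the sizes of the rises. The folds of the 54 higher members ran from 2.35 to 85.6. Both comparisons share the T40 library and are therefore not independent of each other.

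The cold library looked different. In T4/T25, 19 members were listed, 7 of them higher and 12 lower in T4. The listed share of 26.4% was below the 41.1% of unigenes with an NR hit and the 40.1% of all unigenes. Listed as higher in T4 were 9.72% of the members against 20.3% of unigenes with an NR hit, and listed as lower were 16.7% against 20.8%. Of 52 members with reads known in both libraries, 26 were higher and 26 lower in T4, with a median log2 ratio of 0.01, and 25 of the 33 unlisted ones lay within 2-fold. Those 33 had both values only because T40/T25 and T40/T4 listed them, and the median includes them. Falling short of the 2-fold threshold is a main reason for being unlisted, so their nearness was largely set in advance.

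**Figure D1:**
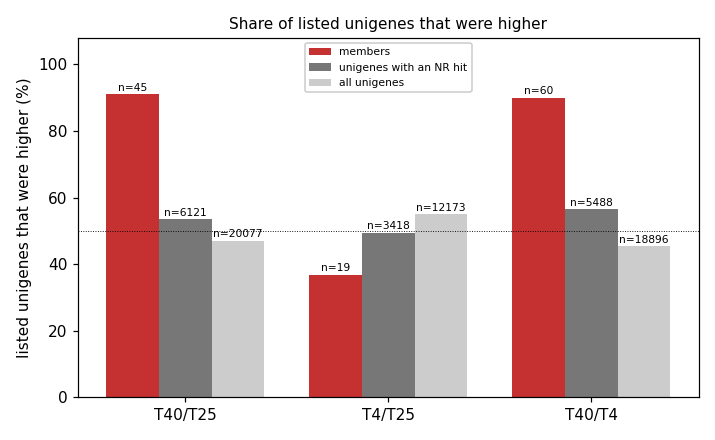
Share of listed unigenes that were higher in the first-named library of each comparison, in percent (vertical axis), for the RNA-processing members, for unigenes with an NR hit and for all unigenes. The number over each bar is the number of listed unigenes, and the dotted line marks equal numbers of higher and lower. The members' bars stand for 41 of 45 unigenes in T40/T25, 54 of 60 in T40/T4 and 7 of 19 in T4/T25.

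Reads in all 3 libraries were known for 49 members. Counts were divided by the effective library size that the authors had used, 36483914 reads in T4, 28015943 reads in T25 and 38643842 reads in T40. T40 was the highest library for 43 of the 49 (87.8%), against 45.8% of the 5801 unigenes with an NR hit that had 3 values. However, 33 of the 49 had 3 values only because they were listed in both T40/T25 and T40/T4. For those members T40 was nearly bound to be the highest or lowest library. The order and the sums given here therefore partly restate the calls. T4 was the lowest library for 22 members and T25 for 22, while T40 was the lowest for 5. Summed over the 49, the members had 448 CPM (reads per 1000000 reads of the effective library size) in T4, 408 CPM in T25 and 1457 CPM in T40. Without c188102_g1_i1, the member with the most reads, the sums were 283, 308 and 941. In whole larvae, fewer cells of a type and less RNA per cell cannot be told apart.

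**Figure D2:**
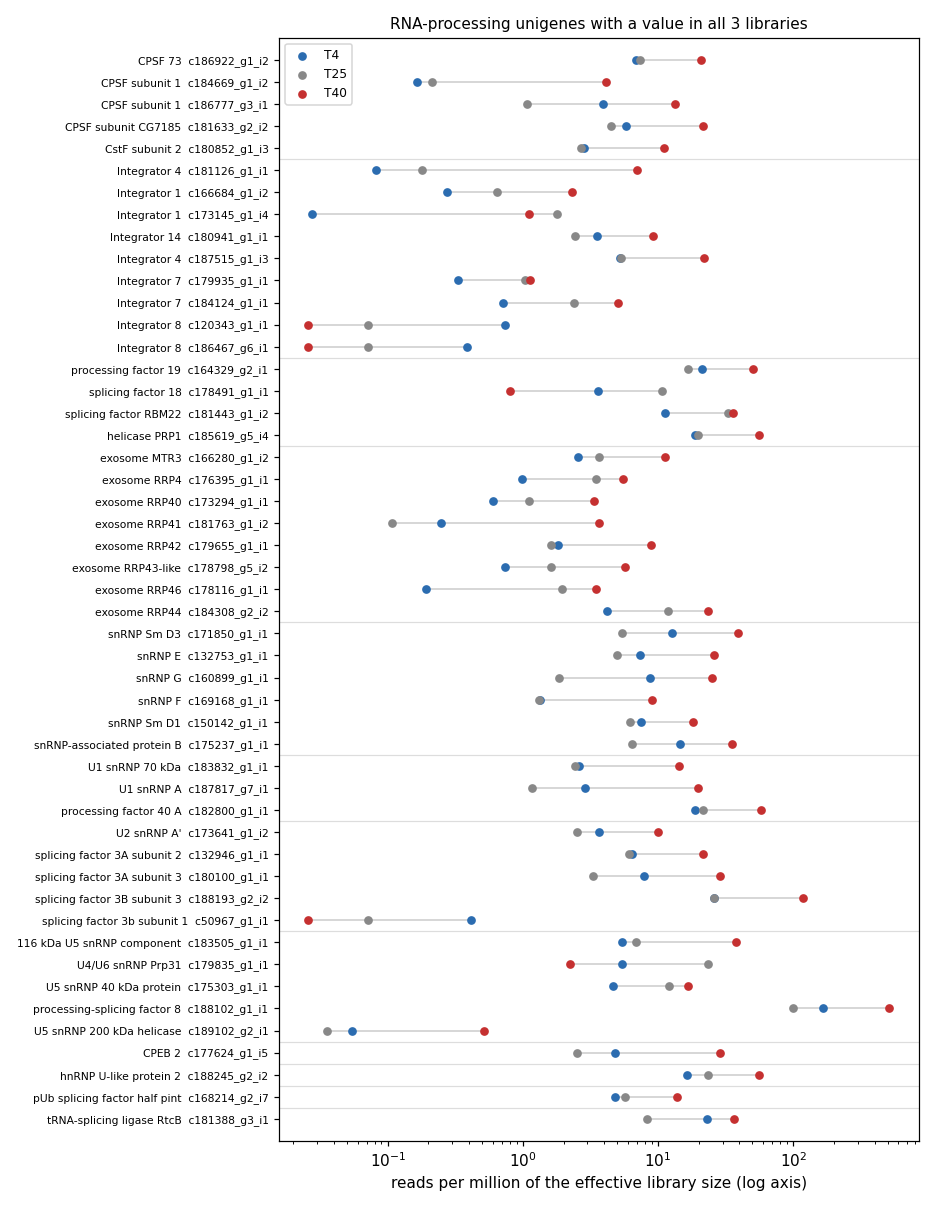
CPM, that is, counts scaled by the effective library size (log axis), of the 49 members with a value in T4, T25 and T40, 1 row per unigene, with grey lines between rows of different role groups. Points of T40 lie farthest to the right in 43 rows, and the rows of both Integrator 8 unigenes, splicing factor 18, splicing factor 3b subunit 1 and Prp31 are the ones where T40 lies farthest to the left.

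The Sm proteins form the ring that every spliceosomal snRNP except U6 carries around its RNA. All 7 unigenes of this group were higher in T40 than in T4, and all 6 that were listed in T40/T25 were higher there too. The group covered D1, D2, D3, E, F, G and the protein annotated as snRNP-associated protein B, that is, each of the ring's protein types. The SmG unigene c160899_g1_i1 had 320 reads in T4, 52 in T25 and 965 in T40. It was 13.5-fold higher in T40 than in T25 (95% counting interval 10.2 to 18.1) and 4.73-fold higher in T4 than in T25 (3.52 to 6.46). Here and after every fold, the values in parentheses bound the 95% counting interval (Clopper-Pearson, on the reads of both libraries), which holds no variation between larvae. SmG was the only Sm unigene listed in all 3 tables.

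The SmD3 unigene c171850_g1_i1 had 464 reads in T4, 152 in T25 and 1501 in T40, which was 7.16-fold more in T40 than in T25 (6.06 to 8.52). For SmF (c169168_g1_i1) the reads were 49, 37 and 349, and its T40/T25 ratio was 6.84 (4.86 to 9.88). Reads of SmE (c132753_g1_i1) were 270, 140 and 997, a ratio of 5.16 (4.32 to 6.21). In each of the 3, T4 was nearer to T25 than to T40. However, T4 exceeded T25 by 2.34-fold for SmD3 (1.95 to 2.83) and 1.48-fold for SmE (1.2 to 1.83). Protein B (c175237_g1_i1) had 533, 181 and 1354 reads and SmD1 (c150142_g1_i1) had 273, 175 and 704. Their T4/T25 ratios were 2.26 (1.91 to 2.69) for protein B and 1.2 (0.987 to 1.46) for SmD1. SmD2 (c161573_g1_i1) was listed in T40/T4 alone, with 252 reads in T4 and 793 in T40. All 6 Sm unigenes with 3 values were lowest in T25 by scaled counts, although T4 and T25 of SmF differed by a ratio of only 1.02 (0.65 to 1.6). Per length, the level of SmF in T4 (2.81 FPKM) lay just under that in T25 (2.96 FPKM), so its order in these libraries was not resolved.

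Of the 10 RNA exosome unigenes, none was listed as lower in T40, but T4 was the low library here. The exosome has a barrel of RNase PH-like proteins, among them RRP41, RRP42, RRP43, RRP46 and MTR3, which is capped by RRP4, RRP40 and CSL4, and in animals and yeast RRP44 is its nuclease. Listed as higher in T40 were 6 members against T25 and 9 against T4, and 3 members were listed as lower in T4 than in T25. All 8 with 3 values were highest in T40, 6 of them were lowest in T4 and 2 in T25.

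The ring protein RRP46 (c178116_g1_i1) had 7 reads in T4, 55 in T25 and 135 in T40. It was 10.2-fold lower in T4 than in T25 (4.65 to 26.6) and 18.2-fold higher in T40 than in T4 (8.6 to 46.2). The nuclease RRP44 (c184308_g2_i2) had 154, 332 and 911 reads, and its T4 level was 2.81-fold below T25 (2.31 to 3.42). RRP44 was 1.99-fold higher in T40 than in T25 (1.75 to 2.26) and was not listed in that table. RRP46 and RRP44 thus had a stepwise order from T4 over T25 to T40. The cap protein RRP4 (c176395_g1_i1) had the same order, with 36, 98 and 213 reads, and was 3.55-fold lower in T4 than in T25 (2.4 to 5.35).

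RRP41 (c181763_g1_i2) departed from that order. It had 9 reads in T4, 3 in T25 and 141 in T40, and was 34.1-fold higher in T40 than in T25 (11.4 to 167). RRP42 (c179655_g1_i1) had 66, 45 and 342 reads, which was 5.51-fold more in T40 than in T25 (4.03 to 7.7). The RRP43-like unigene c178798_g5_i2 had 27, 45 and 221 reads, a T40/T25 ratio of 3.56 (2.57 to 5.02). For RRP41 and RRP42, T4 and T25 could not be separated by their counts, as both intervals of T4/T25 included 1. The remaining members were RRP40 with 22, 31 and 130 reads, MTR3 with 93, 102 and 437 reads in its larger unigene, and CSL4 with 75 reads in T4 and 232 in T40.

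Levels of different subunits can be set side by side only per length. In FPKM, the 6 Sm unigenes with 3 values summed to 71.4 in T4, 37.7 in T25 and 246 in T40, while the 8 exosome unigenes summed to 8.46, 19.3 and 61.0. The Sm sum was thus higher in T4 than in T25 and the exosome sum was lower. Within T40, the Sm unigenes spanned 21.8 to 65.1 FPKM and the exosome unigenes 2.8 to 10.97 FPKM, so their ranges did not overlap. They did overlap in T25 (2.96 to 10.48 and 0.16 to 3.9 FPKM) and slightly in T4 (2.81 to 19.87 and 0.33 to 2.83 FPKM). Among the Sm unigenes the highest level exceeded the lowest by a ratio of 7.07 in T4 and 3.54 in T25, against 2.99 in T40. For the exosome unigenes these ratios were 8.58, 24.4 and 3.92.

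**Figure D3:**
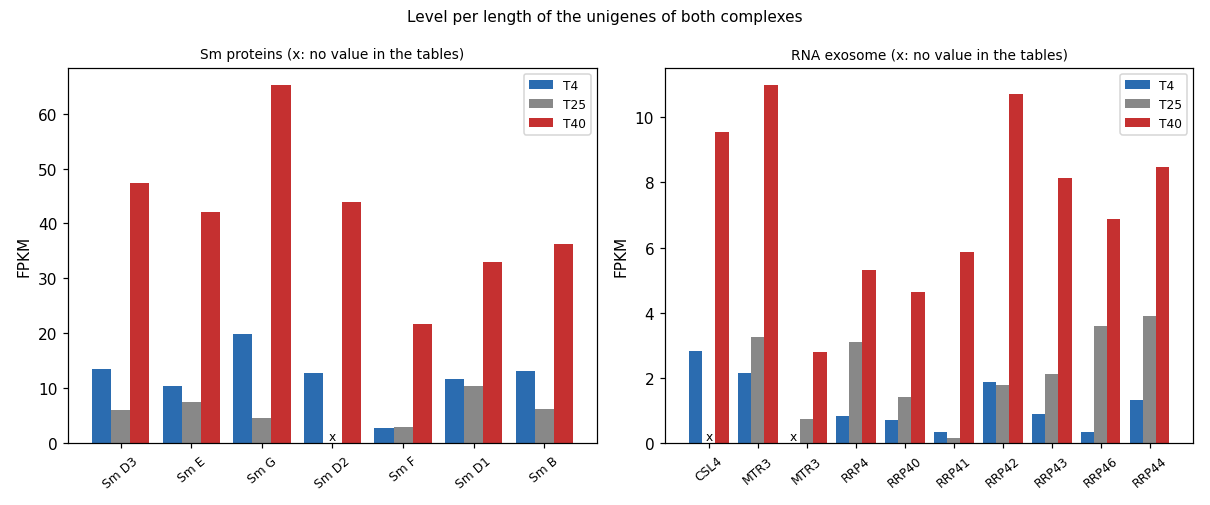
FPKM, the authors' counts scaled by unigene length and library size (linear axes that start at 0), of the Sm unigenes on the left and the RNA exosome unigenes on the right, in T4, T25 and T40. An x marks a library whose value was in no table used here. T40 is the tallest bar for every unigene in both panels. T4 exceeds T25 for 5 of the 6 Sm unigenes that have both bars, and T25 exceeds T4 for 6 of the 8 such exosome unigenes.

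All U1 snRNP members were higher in T40. The U1 snRNP A unigene c187817_g7_i1, whose protein binds a loop of U1 RNA, had 105 reads in T4, 33 in T25 and 770 in T40. That was 16.9-fold more in T40 than in T25 (11.9 to 24.8) and 6.92-fold more in T40 than in T4 (5.64 to 8.57). The 70 kDa protein c183832_g1_i1, which contacts SR proteins, had 95, 68 and 551 reads and a T40/T25 ratio of 5.87 (4.56 to 7.67). Processing factor 40 homolog A (c182800_g1_i1), a protein that bridges the ends of the intron in yeast, had 687, 603 and 2215 reads, a T40/T25 ratio of 2.66 (2.43 to 2.92). Processing factor 39 (c182089_g1_i2) was listed in T40/T4 alone, with 762 reads in T4 and 2087 in T40. The 4 members differed in size of the T40 excess, and the A protein had the largest.

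Among the 9 unigenes of the U2 snRNP and of U2AF, which finds the polypyrimidine tract and the 3′ splice site, 5 were listed as higher and 1 as lower in T40 than in T25. Splicing factor 3A subunit 3 (c180100_g1_i1) had 285 reads in T4, 92 in T25 and 1108 in T40. Its T40/T25 ratio was 8.73 (7.05 to 10.9). Splicing factor 3B subunit 3 (c188193_g2_i2), which shapes the branch-site complex, had 949, 732 and 4564 reads, a ratio of 4.52 (4.18 to 4.89). Its T4 and T25 levels differed by a ratio of 1.00 (0.911 to 1.11). Subunit 2 of splicing factor 3A (c132946_g1_i1) likewise had near-equal T4 and T25 levels, with 235, 171 and 832 reads. The U2 snRNP A′ unigene c173641_g1_i2 had 133, 71 and 387 reads and was 3.95-fold higher in T40 than in T25 (3.06 to 5.16). A further 3 members were listed in a single table each. U2AF 50 kDa (c173715_g3_i1) had 1352 reads in T4 and 3389 in T40, splicing factor 3B subunit 5 (c156563_g1_i1) had 137 and 383, and a partial splicing factor 3B subunit 4 (c141118_g1_i1) had 34 in T25 and 126 in T40.

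The tri-snRNP held the member with the most reads and one of the clearest exceptions. Splicing factor 8 (c188102_g1_i1), the U5 protein at the catalytic centre, had 6021 reads in T4, 2814 in T25 and 19912 in T40. It was 3.12-fold higher in T40 than in T4 (3.03 to 3.21) and, though unlisted there, 1.64-fold higher in T4 than in T25 (1.57 to 1.72). The 116 kDa U5 component c183505_g1_i1, a GTPase that triggers unwinding steps, had 196, 191 and 1462 reads and was 5.55-fold higher in T40 than in T25 (4.77 to 6.49). The U5 40 kDa protein c175303_g1_i1 had 169, 340 and 642 reads and was 2.62-fold lower in T4 than in T25 (2.17 to 3.17). The short unigene c189102_g2_i1 of the U5 200 kDa helicase had 2, 1 and 20 reads, so its T40/T25 ratio of 14.5 (2.32 to 601) rested on 1 read in T25.

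Prp31 (c179835_g1_i1), which ties U4 and U6 to U5 in the tri-snRNP, ran the other way. It had 197 reads in T4, 658 in T25 and 87 in T40. The T25 level was 10.4-fold above T40 (8.33 to 13.2) and 4.35-fold above T4 (3.7 to 5.13). In the same particle, splicing factor 38 (c172882_g1_i1), needed in yeast to activate the spliceosome, had 7 reads in T4 and 23 in T25, a level 4.28-fold lower in T4 (1.78 to 11.8).

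Splicing factor 18 (c178491_g1_i1), which acts in the second catalytic step, shared the pattern of Prp31. It had 132 reads in T4, 301 in T25 and 31 in T40, and was the only member listed as lower in all 3 comparisons. It was 13.4-fold lower in T40 than in T25 (9.24 to 20.1), 2.97-fold lower in T4 than in T25 (2.41 to 3.67), and 4.51-fold lower in T40 than in T4 (3.03 to 6.9). Prp31 and splicing factor 18 were the only members among the 49 with the order T25, T4, T40 from high to low.

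The other late splicing factors and helicases split by unigene. Processing factor 19 (c164329_g2_i1), the ubiquitin ligase that stabilises the active spliceosome, had 767, 469 and 1955 reads in T4, T25 and T40 and a T40/T25 ratio of 3.02 (2.73 to 3.35). A helicase annotated as PRP1 (c185619_g5_i4) had 690, 557 and 2164 reads, a ratio of 2.82 (2.56 to 3.1). RBM22 (c181443_g1_i2), which contacts U6 RNA in the active spliceosome, had 413, 924 and 1382 reads and was 2.91-fold lower in T4 than in T25 (2.59 to 3.28). T4 was thus the low library for RBM22, whose T40 and T25 levels were not separated by their counts (T40/T25 1.08, 0.997 to 1.18), and T40 was the high library for the other two. Processing factor 17 (c184133_g1_i2), a second-step factor, had 345 reads in T4 and 1091 in T40. Of the unigenes named for PRP16, the helicase that remodels the spliceosome between both steps, c184680_g1_i2 was 2.89-fold higher in T4 (271 reads) than in T25 (72 reads). The PRP16-like unigene c186035_g2_i1 had 177 reads in T4 and 63 in T40, and was 2.98-fold lower in T40 (2.22 to 4.03). Both unigenes had their known high value in T4.

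The minor spliceosome removes a rare class of introns with its own U11 and U12 snRNPs. Its U11/U12 25 kDa unigene c169109_g1_i1 had 41 reads in T25 and 16 in T40, a level 3.53-fold lower in T40 (1.94 to 6.75). The U2AF 35 kDa-related protein 2 (c186019_g7_i8), known in mammals to serve that spliceosome at the 3′ splice site, had 171 reads in T25 and 52 in T40. It was 4.54-fold lower in T40 (3.31 to 6.31). With Prp31 and splicing factor 18, these were the 4 members listed as lower in T40 than in T25. The shared link to minor introns was noticed after the values were seen, and T4 reads were not in the tables used here for either unigene.

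Proteins that steer the choice of splice sites were few. The unigene c173919_g1_i1, an SR protein by its NR description as serine/arginine-rich splicing factor 4-like, had 142 reads in T4 and 264 in T25. It was 2.42-fold lower in T4 (1.97 to 2.99). No Pfam protein domain and no hit in UniProt, a further protein database, was recorded for it. An hnRNP A1-like unigene (c179787_g3_i3), of a family that often opposes SR proteins, had 1856 reads in T4 and 4624 in T40, a ratio of 2.35 (2.23 to 2.48). The hnRNP U-like protein 2 (c188245_g2_i2) had 602, 660 and 2169 reads in T4, T25 and T40 and was 2.38-fold higher in T40 than in T25 (2.18 to 2.6), the smallest fold among the higher members of that table. A poly(U)-binding splicing factor, whose *Drosophila* counterpart acts on alternative splicing, had a pair of unigenes. In c168214_g2_i7 the reads were 176, 159 and 532, and in c153999_g1_i1 they were 31 in T25 and 135 in T40. Their T40/T25 ratios were 2.43 (2.03 to 2.91) and 3.16 (2.12 to 4.83), so their intervals overlapped. The unigene annotated as arginine/serine-rich splicing factor 7 (c168175_g1_i2) had 764 reads in T4 and 2613 in T40, 3.23-fold more in T40 (2.98 to 3.5).

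**Figure D4:**
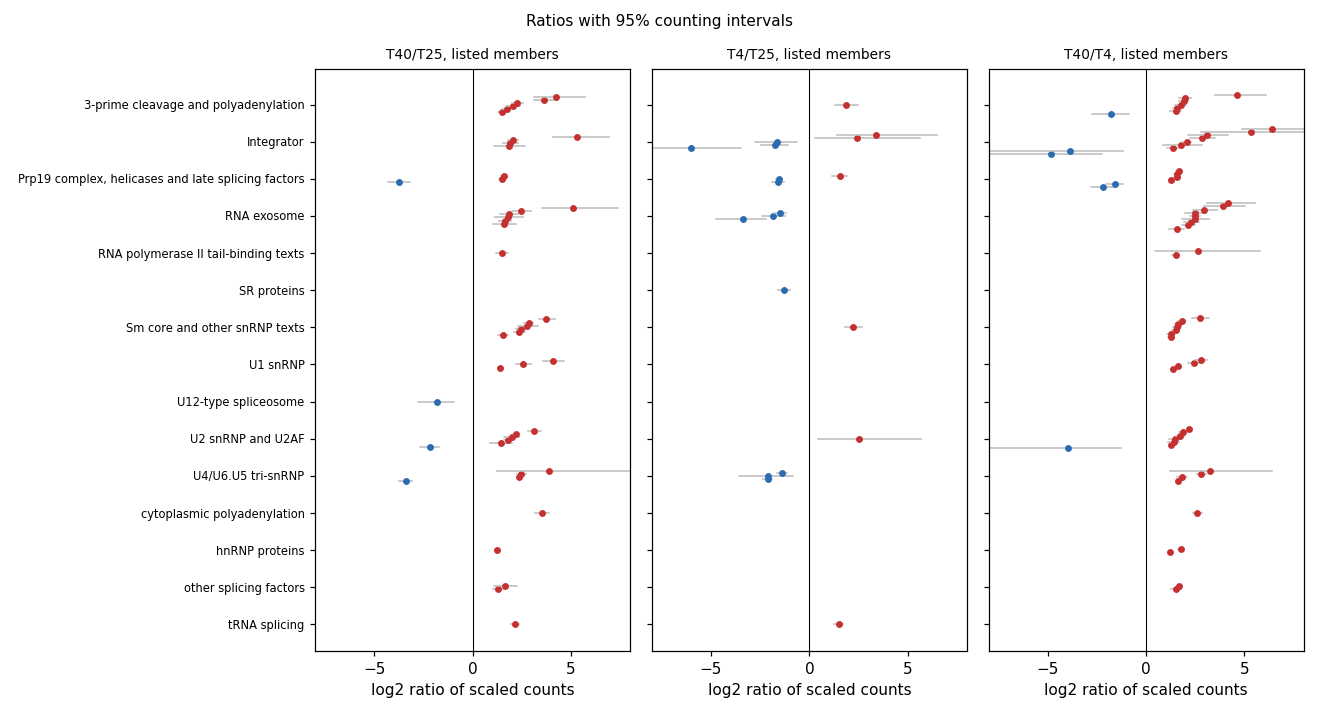
log2 ratio of size-scaled counts for every member listed in T40/T25, T4/T25 and T40/T4, by role group, with grey lines for 95% counting intervals that end at the panel edge where they run beyond it. Red points are higher and blue points lower in the first-named library. In T40/T25 the blue points are 4 of 45, in T4/T25 12 of 19 and in T40/T4 6 of 60.

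The factors that cut and polyadenylate pre-mRNA were higher in T40 in all 6 unigenes listed against T25. The cleavage and polyadenylation specificity factor (CPSF) reads the AAUAAA signal and holds the endonuclease, CPSF 73. Its subunit 1 had a pair of unigenes. Unigene c186777_g3_i1 had 143 reads in T4, 30 in T25 and 513 in T40, with T40/T25 at 12.4 (8.58 to 18.6) and T4/T25 at 3.66 (2.46 to 5.62). It was, with SmG, one of the only members listed as higher in all 3 comparisons. Unigene c184669_g1_i2 had 6, 6 and 158 reads and a T40/T25 ratio of 19.1 (8.58 to 52.8). Both were highest in T40 but only the former stood above T25 in T4.

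The endonuclease CPSF 73 (c186922_g1_i2) had 251, 207 and 799 reads, a T40/T25 ratio of 2.8 (2.4 to 3.28). The subunit annotated as CG7185 (c181633_g2_i2) had 210, 126 and 833 reads, a ratio of 4.79 (3.97 to 5.83). Subunit 2 of the cleavage stimulation factor (c180852_g1_i3), which binds GU-rich sequence past the cut site, had 103, 75 and 426 reads and a ratio of 4.12 (3.22 to 5.34). These 3 had T4 levels within 1.28-fold of T25. Subunit 1 of that factor (c178842_g5_i2) had 151 reads in T4 and 454 in T40. CPSF subunit 2 appeared as c181635_g5_i1, with 170 reads in T25 and 784 in T40, and as c173495_g3_i2, with 45 reads in T4 and 14 in T40. The latter was 3.4-fold lower in T40 than in T4 (1.84 to 6.72), and its nearest NR protein was from *Papilio polytes*, so both unigenes need not report the same transcript.

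Integrator unigenes went in both directions in T40/T4, with 7 higher and 2 lower in T40. Integrator 4 unigene c181126_g1_i1 had 3 reads in T4, 5 in T25 and 272 in T40, the largest T40/T25 ratio of all members at 39.4 (16.7 to 122). The other Integrator 4 unigene, c187515_g1_i3, had 190, 150 and 844 reads and a ratio of 4.08 (3.43 to 4.89). In mammals this subunit belongs to the cleavage module of Integrator. Its unigenes agreed in direction and differed in size, with intervals that did not overlap. Integrator 14 (c180941_g1_i1) had 129, 68 and 353 reads, a T40/T25 ratio of 3.76 (2.9 to 4.95).

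Integrator 1, the scaffold subunit, was low in T4. Unigene c173145_g1_i4 had 1 read in T4, 50 in T25 and 43 in T40, so its T4/T25 ratio, 65.1-fold lower (11.2 to 2623), rested on that read. Unigene c166684_g1_i2 had 10, 18 and 89 reads and was 8.4-fold higher in T40 than in T4 (4.36 to 18.1). The Integrator 7 unigenes had the same low T4 level, with 26, 67 and 197 reads in c184124_g1_i1, 3.36-fold lower in T4 than in T25 (2.1 to 5.5). In c179935_g1_i1 the reads were 12, 29 and 44. Integrator 8 went the other way, with 27, 2 and 1 reads in c120343_g1_i1 and 14, 2 and 1 in c186467_g6_i1. The former was 28.6-fold lower in T40 than in T4 (4.71 to 1171), a value resting on 1 read. Splicing factor 3b subunit 1 (c50967_g1_i1), with 15, 2 and 1 reads, had that pattern too, and its nearest NR protein came from a beetle, *Rhyzopertha dominica*. Its UniProt hit was a fission yeast protein, and whether it is a transcript of the larvae was not tested. Both Integrator 8 unigenes and this one were the only members among the 49 that were highest in T4.

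The description words also took in proteins that act beside splicing. Cytoplasmic polyadenylation element-binding protein 2 (c177624_g1_i5), a regulator of poly(A) tails and translation in the cytoplasm, had 175 reads in T4, 71 in T25 and 1120 in T40. It was 11.4-fold higher in T40 than in T25 (8.99 to 14.7). The RtcB homolog c181388_g3_i1, a ligase that joins the exons of tRNA and, in animals, the *Xbp1* mRNA of the unfolded protein response, had 843, 232 and 1411 reads. It was higher than T25 in both treated libraries, 4.41-fold in T40 (3.83 to 5.09) and 2.79-fold in T4 (2.41 to 3.24). The unigene c187135_g8_i5 of regulation of nuclear pre-mRNA domain-containing protein 1B, which binds the tail of RNA polymerase II, had 129 reads in T25 and 497 in T40, a ratio of 2.79 (2.3 to 3.42). A further tail-binding protein, annotated as arginine/serine-rich splicing factor 15 (c187349_g1_i7), had 314 reads in T4 and 942 in T40, while c187349_g2_i1 of the same annotation had 2 and 13.

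Of the 12 members listed as lower in T4 than in T25, 3 belonged to the exosome, 3 to Integrator and 3 to the tri-snRNP. The 7 higher ones were SmG, CPSF subunit 1, RtcB, PRP16 and the low-count unigenes of Integrator 8 and splicing factor 3b subunit 1. Among the members, 7 descriptions had more than 1 unigene, and in 0 of these did listed unigenes of the same description go in opposite directions within a comparison. Where a comparison listed at most 1 unigene of a description, no conflict was possible. CPSF subunit 2 was such a case, with 1 unigene higher in T40/T25 and the other lower in T40/T4. Low counts limited 8 members, which had at most 3 reads in a library, while 63 of the 72 had at least 50 reads in their highest library.

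Other genes of RNA processing that the words did not take in numbered 26 in the tables. Their list held Sm-like, exon junction, cap-binding, export, SMN and deadenylation proteins. It also held CDC5L, exosome component 10, symplekin, serrate and CUGBP Elav-like (CELF) proteins. In T40/T25, 11 of the 18 listed were higher and 7 lower, so the split was less one-sided than the 41 and 4 of the members, and this difference was not tested. In T40/T4 12 were higher and 5 lower, and in T4/T25 2 were higher and 7 lower. The background share of higher unigenes among all listed ones with an NR hit was 53.6% in T40/T25. It was 56.6% in T40/T4 and 49.4% in T4/T25. THO complex subunit 7 (c176283_g1_i1), of the complex that links transcription to mRNA export, had 93 reads in T4, 35 in T25 and 362 in T40, a T40/T25 ratio of 7.5 (5.29 to 10.9). LSm3 (c168607_g1_i2), of the Sm-like ring on U6 RNA, had 32, 26 and 185 reads, a ratio of 5.16 (3.41 to 8.11). Both were highest in T40. CELF1 (c182592_g6_i7), a regulator of alternative splicing, had 3567, 4752 and 18173 reads and was 4.81-fold higher in T40 than in T4 (4.64 to 4.99).

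Lower in T40 on that list was CDC5L (c184100_g2_i5), a core protein of the Prp19 complex, with 1176 reads in T4, 1253 in T25 and 241 in T40. It was 7.17-fold lower in T40 than in T25 (6.24 to 8.27). Exosome component 10 (c181059_g2_i2), the nuclear exonuclease that partners the exosome, had 2345, 5585 and 2394 reads and was 3.22-fold lower in T40 than in T25 (3.07 to 3.38). Of their partners among the members, processing factor 19 and 6 of the 10 exosome unigenes were listed as higher in T40 than in T25. RRP4, RRP46 and RRP44 were unlisted there, with T40/T25 ratios of 1.58, 1.78 and 1.99. Symplekin (c188046_g1_i1), the scaffold of the cleavage machinery, had 254, 1526 and 865 reads and was 7.82-fold lower in T4 than in T25 (6.85 to 8.97). Gem-associated protein 8-like (c177770_g1_i1), of the SMN complex that loads Sm rings, had 155, 22 and 18 reads, 5.41-fold more in T4 than in T25 (3.45 to 8.88). An export factor, NXF2-like (c173963_g1_i2), had 87, 263 and 237 reads and was 3.94-fold lower in T4 than in T25 (3.08 to 5.08).

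Ribosome biogenesis and RNA polymerase I and III unigenes, 59 in number, had a split like that of the members, with 33 higher and 3 lower in T40/T25, 52 and 1 in T40/T4, and 3 and 11 in T4/T25. Their median log2 ratio in T40/T25 was 1.92. Among 52 histone and chromatin unigenes, 26 were higher and 14 lower in T40/T25. The background share of higher unigenes in that table was 53.6% of those listed with an NR hit. The ribosome biogenesis unigenes thus shared the T40 excess of the RNA-processing members.

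Tissue markers differed between the libraries as well. Summed over unigenes with 3 values, 50 muscle unigenes had 55749 CPM in T4, 71827 CPM in T25 and 10222 CPM in T40, and 12 fat body unigenes had 213949, 96874 and 25792 CPM. A few unigenes carried the fat body sums, and they did not move alike. The storage protein c188452_g2_i4 had 3611733 reads in T4, 762040 in T25 and 271034 in T40, and hexamerine (c185409_g1_i1) had 2490035, 1605684 and 144330. Without both, the remaining 10 fat body unigenes had 46703, 12361 and 15044 CPM. Apolipophorins (c189548_g1_i1), the lipid carrier, was 6.65-fold higher in T40 (505139 reads) than in T25 (55061 reads). In T40/T25, 4 of the 8 listed fat body unigenes were higher and 4 lower. For cuticle proteins the sums were 3390, 2680 and 286 CPM, and for hemocyte proteins 727, 740 and 139 CPM. Silk gland unigenes had 238, 94.9 and 0.72 CPM, and neuronal ones 119, 75.4 and 20.3 CPM. Midgut unigenes were the tissue list with its highest sum in T40, at 5083, 4577 and 11440 CPM. In T40/T25, 36 of the 52 listed muscle unigenes were lower and 23 of the 37 listed midgut unigenes were higher. Of 16 heat shock protein unigenes, 7 were higher and 4 lower in T40/T25. The part of these tissue differences in the T40 excess of the RNA-processing members was not tested.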

How the data were processed

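RNA-seq was made from whole larvae, with 1 pooled library per temperature. Per the labels and the study's methods, FastQC 0.11.7 and Trimmomatic 0.38 served for quality control and trimming, Trinity and CD-HIT for assembly into unigenes, and Bowtie 1.1.2 with RSEM for alignment and read counting. The authors deposited 3 tables of called unigenes. Their deposited counts are whole numbers without normalization. The authors scaled the same counts by length and depth to give the deposited FPKM. Deposited log2 values equal log2 of 1 plus CPM of an effective library size, which was recovered from them. The columns of fold changes, average log2 CPM, P-values and adjusted P-values that the authors deposited hold their own comparisons and were not used, beyond which unigenes are listed.

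Ratios were computed from counts over the effective library size with no pseudocount. Clopper-Pearson intervals at 95% cover counting error. A simulation checked their computation alone, because its counts were drawn with counting error only, as the intervals assume. It does not bear on the assignment of reads to unigenes or on variation between larvae. No p-value was computed. Total reads in the tables were 24403584 for the T4 library, 16678975 for the T25 library and 21560373 for the T40 library. Members were sorted into role groups by their descriptions, and 2 groups were adjusted after the descriptions had been read. Named are, per role group and comparison, up to 3 highest and 3 lowest members whose higher library had 50 or more reads (ranked with a pseudocount of 1), all members of groups of at most 6, those in all 3 tables, the member with the most reads, and up to 2 highest and 2 lowest of the list of other RNA-processing genes. The fat body list was freed of fibrohexamerin, a silk gland protein, after its members were seen. Other unigenes named were chosen after their values were seen. The members and lists were chosen with earlier results of these data known. Alternatives were TMM scaling (edgeR 4.0.16 in R 4.3.3), scaling by trimmed or summed reads, FPKM ratios, pseudocounts, filters on reads and fold, 1 unigene per description and other member rules. The TMM factors came only from the unigenes listed in each comparison, all of which the authors had called as different. The scripts ran in Python 3.11.15 with scipy 1.17.1, numpy 2.4.6, pandas 2.3.3 and matplotlib 3.10.9.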

Additional observations from a re-analysis of the deposited data

How the results depend on the processing

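TMM scaling, scaling by trimmed reads, scaling by summed reads and FPKM ratios shifted the log2 ratios of all listed unigenes by a median of 0.10 to 0.16 in T40/T25, by -0.22 to -0.09 in T4/T25 and by -0.02 to 0.38 in T40/T4, which is less than the ratio of any listed member, so no direction could turn. The median of the members in T40/T4 became 2.03 with trimmed reads and 2.13 with summed reads, and that in T4/T25 became -1.21 with a pseudocount of 10. Requiring at least 4-fold left 22 higher members in T40/T25, 22 in T40/T4, and 4 higher and 4 lower in T4/T25. Requiring at least 50 reads left 4 higher members in T4/T25 and 2 lower in T40/T4. Choosing members by GO text gave 111 higher and 28 lower in T40/T25, 27 and 44 in T4/T25, and 144 and 26 in T40/T4. The GO text also takes in ribosome assembly factors. Of 388 recomputed folds of named members, 300 stayed within their counting interval and 88 left it. The other alternatives moved no count by over 1.5 times. No paired analysis was possible because each temperature has 1 library, and for the same reason no library could be left out. Members that are in no table, and the depth needed to see members with few reads, limit every count given.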

Other observations

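GO terms for RNA processing were carried by 159 unigenes outside the description rule. This set is not separate from the lists above, since CDC5L and nucleolar protein 6, for example, were in both. It also took in ribosome assembly factors and a protein annotated as mitochondrial-like. In T40/T25, 75 of the 100 listed were higher in T40 and 25 lower. In T40/T4, 98 were higher and 21 lower, and in T4/T25 21 were higher and 33 lower. Of all listed unigenes with an NR hit, 53.6% were higher in T40/T25, 56.6% in T40/T4 and 49.4% in T4/T25. Unigenes in the following sentences were chosen after their values were seen.

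NHP2-like protein 1 (c173416_g1_i1), which binds U4 RNA and, in humans, precedes Prp31 in the assembly of the U4 snRNP, had 28 reads in T4, 3 in T25 and 520 in T40. It was 126-fold higher in T40 than in T25 (95% counting interval 42.8 to 611), while the Prp31 unigene c179835_g1_i1 had 197, 658 and 87 reads. The U2 snRNP-associated SURP motif protein (c174588_g1_i2) had 9, 62 and 183 reads and was 8.97-fold lower in T4 than in T25 (4.43 to 20.5). CWC27 (c178540_g1_i1), a peptidyl-prolyl isomerase of the spliceosome, had 77, 6 and 49 reads, so that both treated libraries lay above T25.

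Ribosome assembly factors differed in both directions. U3 small nucleolar RNA-associated protein 11 (c183187_g4_i1) had 59 reads in T4, 4 in T25 and 366 in T40. Nucleolar protein 6 (c188609_g1_i1) had 7, 181 and 372 reads and was 33.7-fold lower in T4 than in T25 (16.0 to 84.9). LTV1 (c182309_g1_i1), a factor of small-subunit maturation, had 1039, 3981 and 173 reads and was 31.7-fold lower in T40 than in T25 (27.3 to 37.2). Poly(ADP-ribose) glycohydrolase (c188745_g2_i1) had 845, 36 and 35 reads, 18.0-fold more in T4 than in T25 (12.9 to 25.9). The largest reads of any chromatin unigene on the compared list belonged to the apoptotic chromatin condensation inducer in the nucleus (c179894_g1_i1), known in mammals as a partner of spliceosomes, with 2625 reads in T4, 760 in T25 and 43175 in T40.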
